A study of Saccharomyces cerevisiae with 12 samples.

Results

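The genes described here are 36 nuclear genes of Saccharomyces cerevisiae, the budding yeast, that encode subunits of the mitochondrial respiratory chain and of ATP synthase. They were listed by name for their known function, with earlier results of these data known, and no threshold on measured values was used. They come from the 7126 genes of a table of RPKM values, in which reads are divided by gene length and by the depth of the library. There were 4 genes of complex II, 9 of complex III, 2 of cytochrome c, 8 of complex IV, 5 of the F1 head of ATP synthase and 8 of its Fo part and stator, and all 36 passed the filter on low values. RNA sequencing was done on 12 libraries in 4 groups of 3, all in BY4741, a haploid laboratory strain. The groups were wild type without compound, wild type with poacic acid, slt2 mutant without compound and slt2 mutant with poacic acid. The compound, spelled poacid acid in the labels, was given at 100 µg/ml for 1 h. BY4741 lacks working LEU2, URA3, MET17 and HIS3 genes, and the controls share this with every other group. The kind of slt2 mutation and the number of clones are not stated in the labels.

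Complexes II, III and IV pass electrons from succinate through ubiquinone and cytochrome c to oxygen, and ATP synthase uses the proton gradient that complexes III and IV build. Cytochrome b, the catalytic core of complex IV and part of Fo are made from mitochondrial genes, while the genes described here are transcribed in the nucleus, where the Hap2/3/4/5 complex, which recognises the bases CCAAT, activates many of them and glucose represses them. Poacic acid is a plant-derived stilbenoid that binds wall glucan, and Slt2 is the MAP kinase at the end of the cell wall integrity pathway.

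SLT2 read 42.1, 45.8 and 49.99 RPKM in untreated wild type and 194, 199 and 236 in treated wild type, against 0 to 0.20 in the 6 slt2 libraries, so the genotype labels held. Libraries held 3462644 to 10542478 reads by the depth recovered from the RPKM steps, and 1 read in a gene of 1 kb was worth 0.0948 to 0.289 RPKM. Of the reads that lay in genes, rRNA genes took 0.0932 to 0.744% in untreated wild-type libraries, 2.67%, 0.106% and 5.17% in treated wild-type libraries 1, 2 and 3, and 4.88 to 6.67% in slt2 libraries. The strain and the rRNA share therefore moved together, and treated wild-type library 3 was closer to the slt2 libraries in this share than to its own group. Replicates of a group correlated at 0.954 to 0.986 across genes. The 3 libraries of a group came from different biological samples, and every sample gave 1 library of each treatment. The RNA came from whole cultures, so fewer cells with a transcript and less of it per cell cannot be told apart.

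CCAAT, on either strand, stood within 250 bases before to 50 bases after the start codon of 30 of the 36 genes (83.3%), and in 44.4% of the 6663 such windows of the genome. The members were picked for their function, and Hap2/3/4/5 is known for activating this class, so the count is a description. The letters of the site are shown for 4 of the 5 genes whose level differed between groups, each as 30 bases of the RefSeq genome of build R64 read 5′ to 3′ on the gene's strand, with CCAAT in capitals.
QCR8: attttttttaagCCAATgaaaatgaagaaa
QCR10: cgtgattttgatCCAATtaaaactaaatat
QCR2: attcccaacgaaCCAATagaaggcccgccc
ATP15: cttttatacgaaCCAATgaaatttgatcct
These lie at chrX:106211-106240, chrVIII:107615-107644, chrXVI:919184-919213 and chrXVI:29934-29963, with the motif 211, 199, 185 and 133 bases before the start codon. ATP15 had a further match, not shown, on the opposite strand 247 bases before the start codon. CYC1, the other gene that differed, had no CCAAT in this window. CCCCT, the stress response element bound by Msn2 and Msn4, was in 16 of the 36 windows (44.4%) and in 21.4% of all windows. QCR10 and ATP15 held it 136 and 115 bases before the start codon, and QCR2 31 bases after the start. CYC7, the minor cytochrome c gene, carried it 192 bases before its start codon, shown on the gene's strand with its reverse complement in capitals (chrV:80152-80181).
CYC7: taagtggccgcaAGGGGcaaagacaaaggc
A CCAAT match cannot overlap a CCCCT match on either strand, while CCAAT matches on opposite strands can overlap each other. None of these matches was tested for binding.

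Levels differed widely between subunits of the same enzyme. ATP2, the catalytic beta subunit of F1 (chrX:647607-649142, plus strand), had the highest mean over the 12 libraries, 292 RPKM, followed by ATP1, the alpha subunit, at 192 RPKM and QCR6, the acidic hinge subunit of complex III, at 149 RPKM. The lowest was CYC7 at 3.82 RPKM, then QCR10 at 7.20, ATP18 at 9.75, COX7 at 11.4 and ATP20 at 12.7 RPKM. Within complex II the membrane anchor SDH3 was highest (42.6 RPKM) and the other anchor SDH4 lowest (19.7 RPKM). Complex III ran from QCR10 to QCR6 and complex IV from COX7 to COX13, whose mean was 87.0 RPKM. In F1 the lowest was ATP15, the epsilon subunit, at 42.3 RPKM, and Fo ran from ATP18 to ATP4, the stator b subunit, at 80.8 RPKM.

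**Figure D1:**
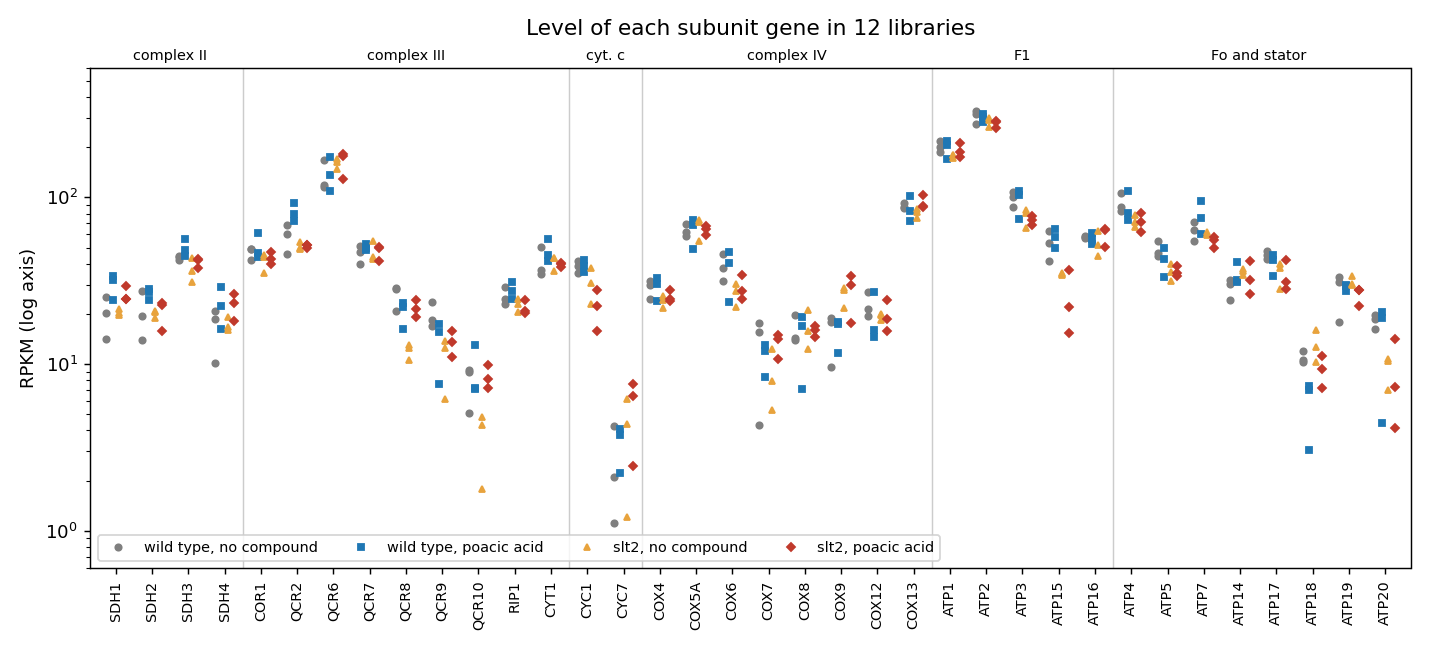
RPKM on a log axis of each of the 36 genes in the 12 libraries, with 1 symbol per library, coloured by group and ordered by complex. ATP2 is the highest in all 12 libraries, CYC7, QCR10 and ATP18 have the lowest means, and the 4 groups overlap for most genes.

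Longer members had higher levels. The 10 members with under 300 bases of exon had a median of 17.8 RPKM and the other 26 a median of 42.4 RPKM. Across the 36 members, log2 RPKM and log2 exon length had a Pearson r of 0.58 and a Spearman rho of 0.59, against 0.069 and 0.055 over 6196 tested nuclear coding genes; genes are not independent replicates. All tested nuclear coding genes under 300 bases had a median of 15.6 RPKM (247 genes) and the longer ones 24.1 RPKM. Library fragments were selected at 300 bp or more, per the labels, and its part in the low values of short genes was not tested. Reads per library were 1513 to 5316 for ATP2, 18 to 86 for QCR8, 2 to 32 for QCR10 and 2 to 17 for CYC7. Values that rest on few reads carry a large counting error. CYC7, with 342 bases of exon, is among the longer members by this cut.

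The RPKM of the subunits were also summed by enzyme. All 36 genes together read 1882 ± 119 RPKM in untreated wild type, 1925 ± 171 in treated wild type, 1704 ± 88 in untreated slt2 and 1731 ± 20 in treated slt2 (SD, n = 3 each). The sum for F1 was 717 ± 49, 708 ± 60, 626 ± 34 and 626 ± 32 RPKM in that order, of which ATP2 and ATP1 were the larger part. Complex III read 404 ± 51, 440.5 ± 62, 389 ± 25 and 408 ± 29 RPKM, and the Fo part 335 ± 21, 331 ± 59, 293 ± 11 and 272 ± 13 RPKM. Complex II read 100.2 ± 18, 128 ± 4.4, 94.5 ± 7.3 and 110.1 ± 12 RPKM, and complex IV 286 ± 13, 276 ± 36, 268 ± 22 and 287 ± 9.2 RPKM. These sums follow their most abundant genes and were given no test.

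The first comparison asked what 1 h of poacic acid did in wild type. None of the 36 genes passed the test, limma on log2(RPKM + 1) with Benjamini-Hochberg adjustment over 6222 genes at 0.05, while 5.83% of all tested genes did (3.87% higher, 1.96% lower). At an unadjusted p under 0.05 there were 3 members (2 higher, 1 lower, with 21.5% of all genes under that p), and limma voom on the recovered reads called 1 member, QCR2. The median log2 fold change of the members was 0.02, as over all tested genes (0.02). For 32 of the 36 members the 95% interval of the change lay within 2-fold either way, against 83.2% of all genes, and the fold changes ranged from -0.88 (ATP18) to 0.59 (SDH1) on the log2 scale.

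The members nearest to the threshold were QCR2, SDH1 and ATP18. QCR2, a core protein of complex III (chrXVI:919381-920487, plus strand), read 60.3, 45.5 and 68.2 RPKM without compound and 93.0, 78.9 and 72.5 with it. Each treated library lay above each untreated one, and the log2 fold change was 0.50 (95% interval 0.18 to 0.81, adjusted p = 0.0613). SDH1, the flavoprotein of succinate dehydrogenase (chrXI:169207-171129, minus strand), read 20.2, 14.1 and 25.3 RPKM without compound and 33.6, 24.1 and 31.7 with it. Its groups overlapped, since treated library 2 was below untreated library 3, and its log2 fold change was 0.59 (0.18 to 0.99, adjusted p = 0.0833). ATP18, a small Fo subunit (chrXIII:103983-104162, minus strand), read 10.5, 11.9 and 10.3 RPKM without compound and 3.05, 7.38 and 6.98 with it, on 3 to 23 reads per library. All treated libraries were below the untreated ones, with a log2 fold change of -0.88 (-1.44 to -0.32, adjusted p = 0.0652). With biological samples as a block SDH1 (adjusted p = 0.0191) and ATP18 (0.0485) passed, so 2 members were called. Leaving out untreated library 3 gave calls for SDH1 (0.0301) and QCR2 (0.031), and leaving out treated library 2 for SDH1 (0.0359) and ATP18 (0.0322). The share of all tested genes called in the block and leave-out fits is not given.

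The 4 genes of complex II had the largest median change of any complex in wild type, 0.43 on the log2 scale, against 0.11 for complex III, -0.04 for complex IV, -0.03 for F1 and -0.13 for Fo. SDH2, the iron-sulfur subunit, read 19.6, 13.9 and 27.6 RPKM without and 28.4, 27.2 and 24.2 with the compound (log2 fold change 0.42, adjusted p = 0.265). SDH4 differed by 0.44 (adjusted p = 0.329) and SDH3 by 0.18 (0.488). No gene of complex II passed the test, and 1 of the 4 had an unadjusted p under 0.05. QCR2 was the only member with all treated libraries above all untreated ones (13.2% of all genes had this), and ATP18 the only one with all below (9.39%).

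The slt2 response compared treated with untreated slt2 libraries. Here 2 of the 36 members rose, QCR8 and QCR10, both small subunits of complex III, and none fell, while 8.45% of all tested genes were called (5.29% higher, 3.17% lower). The median change of the members was 0.01 on the log2 scale, against 0.03 over all genes. The 95% interval lay within 2-fold for 28 members and for 81.2% of all genes. The lowest change was that of ATP15, -0.56 (adjusted p = 0.189), which read 34.5, 34.3 and 35.1 RPKM without and 22.0, 15.3 and 36.7 with the compound. Without treated slt2 library 3, the highest of its group for this gene, ATP15 was called (0.0109).

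**Figure D2:**
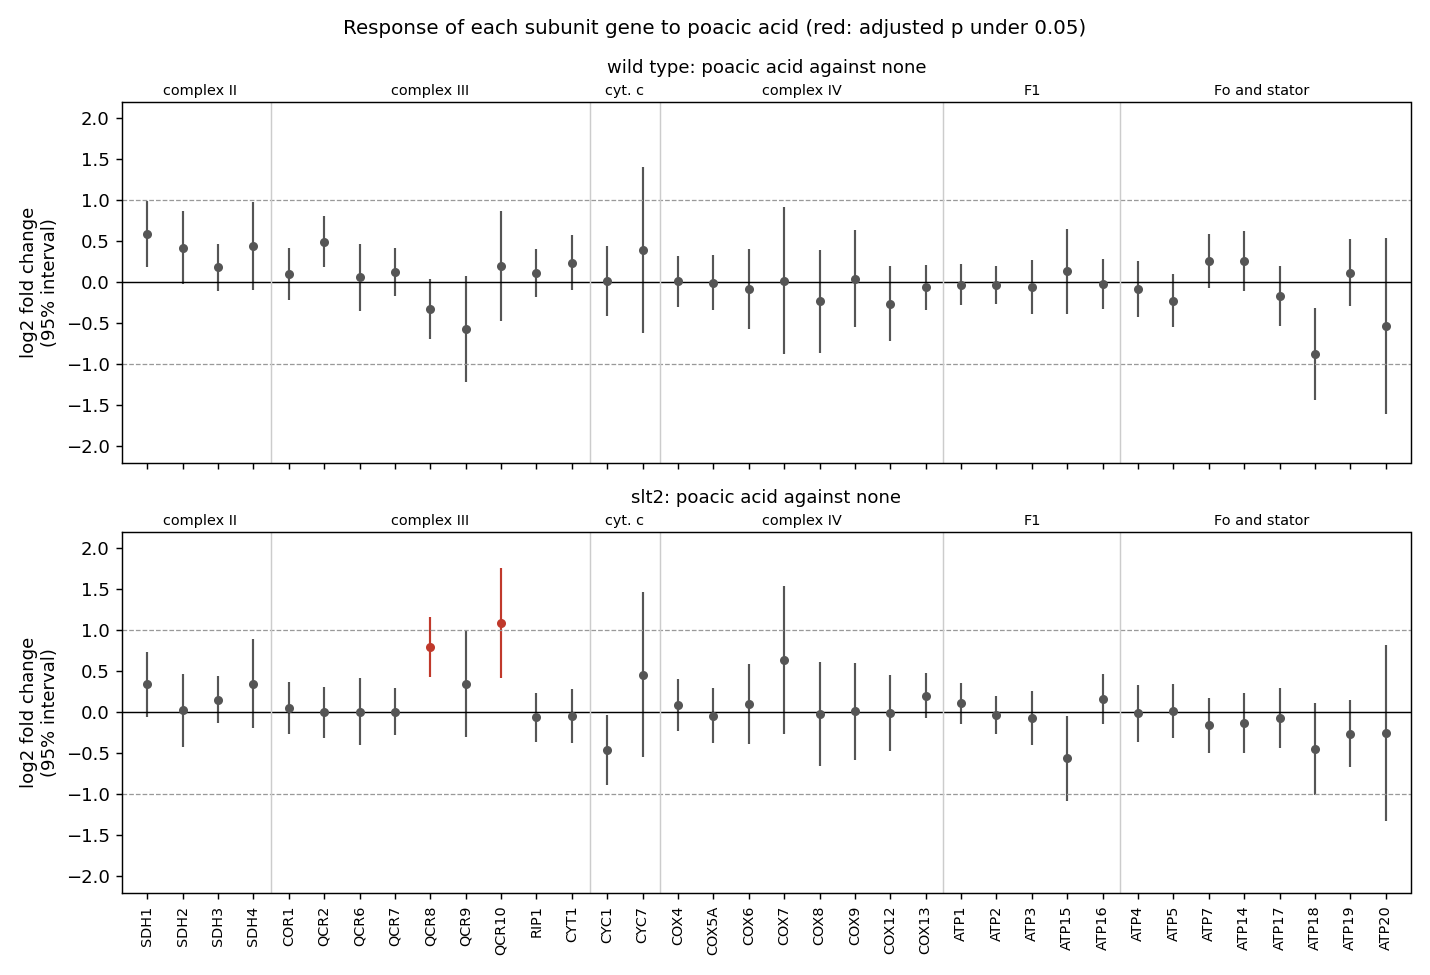
Log2 fold change with its 95% interval of each of the 36 genes under poacic acid, in wild type (top) and in slt2 (bottom), with genes past an adjusted p of 0.05 in red. No gene is red in wild type, and QCR8 (0.79) and QCR10 (1.08) are red in slt2.

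QCR8, a small subunit needed to assemble complex III (chrX:106434-106718, plus strand), read 10.5, 12.5 and 13.1 RPKM in untreated slt2 and 19.2, 24.3 and 21.4 in treated slt2. All treated libraries were above all untreated ones. The log2 fold change was 0.79 ± 0.17 (SE, 95% interval 0.43 to 1.16, limma adjusted p = 0.0108). The treated level, 21.6 ± 2.6 RPKM (SD, n = 3), lay close to that of wild type, which was 25.9 ± 4.5 without and 20.4 ± 3.7 with the compound, and the untreated slt2 level of 12.04 ± 1.3 was the low one. The call was lost without untreated slt2 library 1 (adjusted p = 0.0509) or treated slt2 library 2 (0.0652), and with voom (0.0907).

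QCR10, a small membrane subunit of complex III (chrVIII:107826-108122, plus strand, spliced), read 4.28, 4.84 and 1.77 RPKM in untreated slt2 and 7.22, 9.87 and 8.09 in treated slt2. The groups did not overlap, and the log2 fold change was 1.08 ± 0.31 (SE, 95% interval 0.41 to 1.75, limma adjusted p = 0.0474). Wild type read 8.93, 9.18 and 5.09 RPKM without and 7.05, 13.0 and 7.16 with the compound, which overlaps the treated slt2 libraries. The untreated slt2 value of library 3 rested on 2 reads. The call was lost in 8 of the 12 fits that left out 1 library: without each treated slt2 library in turn (0.0925, 0.185 and 0.0712 for libraries 1, 2 and 3), without untreated slt2 library 1 (0.0661) or 3 (0.201), and without untreated wild-type library 1 (0.0627) or 2 (0.0575) or treated wild-type library 1 (0.0554). With no filter it was 0.0507, with median scaling 0.0506, with the slt2 libraries alone 0.0596, without trend and robust variances 0.0579, and with voom 0.204.

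Besides these, SDH1 and COX13 also had all treated slt2 libraries above the untreated ones without passing the test. SDH1 went from 21.4, 20.1 and 19.8 RPKM to 29.3, 24.6 and 24.6 (log2 fold change 0.34, adjusted p = 0.313), the same direction as in wild type. COX13, a small subunit of complex IV, read 85.1, 75.5 and 81.3 RPKM without and 88.3, 103 and 87.9 with the compound (0.20, adjusted p = 0.400). ATP7, the stator d subunit, and ATP19 lay lower in all treated libraries, without passing. In all, 4 members had no overlap and were higher (18.2% of all genes) and 2 were lower (12.8%).

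The difference of the 2 responses was tested as an interaction. It passed for 1 of the 36 members, QCR8, and for 1.72% of all tested genes (0.723% with a larger and 0.996% with a smaller value in slt2). The log2 response of QCR8 was larger in slt2 by 1.12 ± 0.24 (SE, 95% interval 0.60 to 1.64, limma adjusted p = 0.0301), with 0.79 in slt2 and -0.33 (adjusted p = 0.290) in wild type, where the gene read 28.7, 20.7 and 28.3 RPKM without and 23.1, 22.0 and 16.2 with the compound. The members nearest below the threshold were QCR2 (-0.50, adjusted p = 0.345), QCR9 (0.92, 0.418), ATP15 (-0.69, 0.465) and QCR10 (0.89, 0.465). The median over the members was -0.01, against 0.02 over all genes, and the 95% interval lay within 2-fold for 25 members and 69.1% of all genes. The QCR8 call was lost without untreated wild-type library 1 (0.0917) or 3 (0.0818), treated wild-type library 3 (0.0506), untreated slt2 library 1 (0.0865) or 2 (0.0627) or treated slt2 library 2 (0.0925), with the rRNA share as a covariate (0.06) and with voom (0.122).

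**Figure D3:**
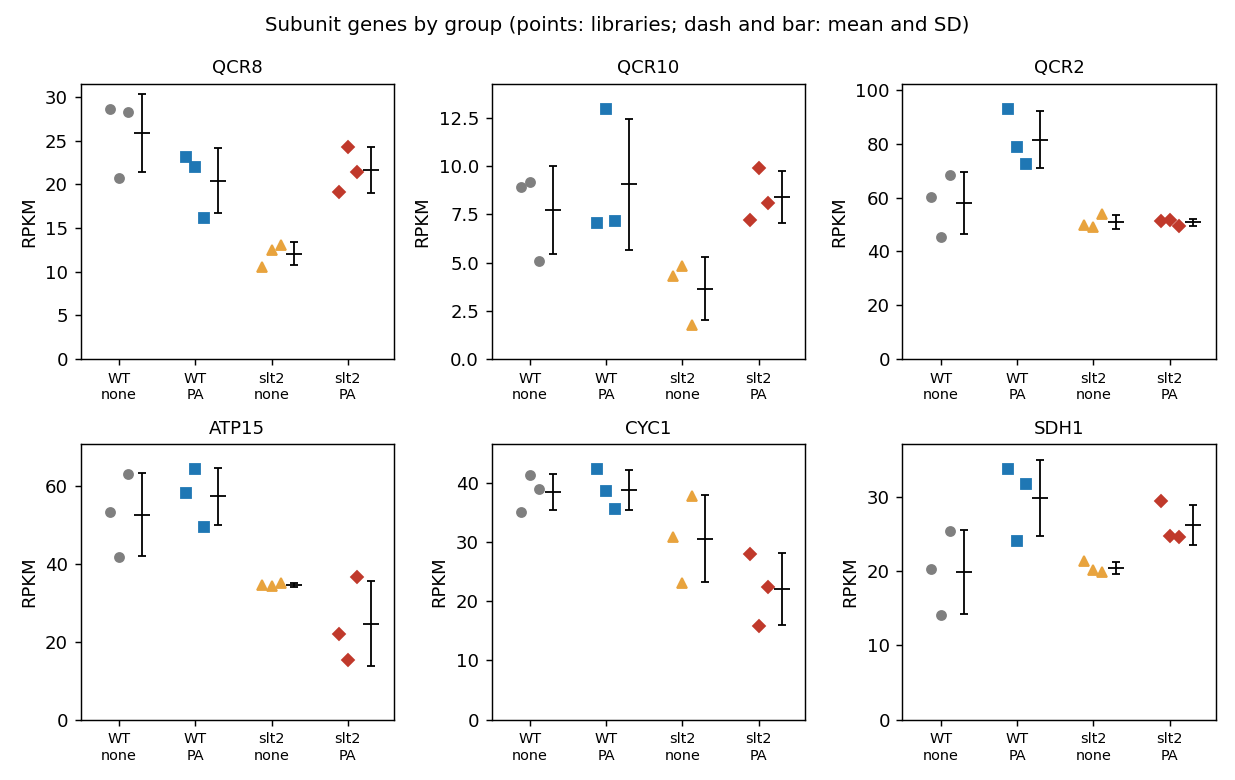
RPKM per library of QCR8, QCR10, QCR2, ATP15, CYC1 and SDH1 in the 4 groups, with points for libraries and the dash and bar for the mean and SD of 3. QCR8 is low in the 3 untreated slt2 libraries (10.5 to 13.1 RPKM), and ATP15 is below 37 RPKM in all 6 slt2 libraries.

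Strain differences were tested without and with the compound, and these comparisons share libraries with the responses. Without compound 1 of the 36 members differed, QCR8, which was lower in slt2, while 1.75% of all tested genes were called (0.884% higher, 0.868% lower). QCR8 read 28.7, 20.7 and 28.3 RPKM in wild type and 10.5, 12.5 and 13.1 in slt2, with no overlap, and the log2 difference was -1.03 ± 0.17 (SE, 95% interval -1.40 to -0.67, limma adjusted p = 0.0227). It was lost without untreated wild-type library 1 (0.0885) or untreated slt2 library 1 (0.115) or 2 (0.0807). With the share of reads in rRNA genes as a covariate it was not called (adjusted p = 1), though the log2 difference was still -0.74. The part of that share in any strain difference cannot be told apart from the genotype, because every slt2 library had more rRNA reads than every untreated wild-type library.

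QCR9 and QCR10 lay the same way as QCR8 without passing. QCR10 differed by -0.95 (adjusted p = 0.102) and QCR9, a small spliced subunit, by -0.87 (0.118), reading 18.4, 16.9 and 23.7 RPKM in wild type and 12.5, 13.7 and 6.19 in slt2. COR1, QCR2 and RIP1 also lay below wild type, by -0.17 each. QCR6 (0.28), QCR7 (0.02) and CYT1, cytochrome c1 (0.03), lay slightly above wild type, and none of these genes passed. In complex IV, COX9 read 19.0, 17.9 and 9.55 RPKM in wild type and 27.8, 21.6 and 28.8 in slt2 (0.76, adjusted p = 0.124). ATP5, the stator subunit that seats F1, differed by -0.43 (adjusted p = 0.118).

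Over all members the log2 difference without compound had a median of -0.17, against -0.08 over all tested genes, and 13 members lay above 0 (40.4% of all genes). The 95% interval lay within 2-fold for 28 members and 81.9% of all genes. The 12 genes whose slt2 values all lay below wild type compare with 23.8% of all genes, and the 2 members above with 11.3%. The 12 were QCR8, QCR9, QCR10, COX6, COX13, ATP1, ATP3, ATP4, ATP5, ATP15, ATP17 and ATP20, and the 2 were COX9 and ATP14. In a fit on the untreated libraries alone 3 members were called, QCR8 with ATP15 (0.0386) and ATP20 (0.0158), and without treated wild-type library 3 QCR9 (0.0433) was called beside QCR8. No share of all tested genes is given for these fits.

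With the compound 3 of the 36 members were lower in slt2, ATP15, QCR2 and CYC1, and none was higher, while 8.21% of all tested genes were called (3.99% higher, 4.23% lower). ATP15, the epsilon subunit of the F1 central stalk (chrXVI:30079-30267, plus strand), read 58.2, 64.2 and 49.5 RPKM in treated wild type and 22.0, 15.3 and 36.7 in treated slt2. The groups did not overlap, and the log2 difference was -1.26 ± 0.24 (SE, 95% interval -1.78 to -0.74, limma adjusted p = 0.00418). The gene had 10 to 128 reads per library. This call held with any 1 library left out (adjusted p up to 0.0254) and was lost only with the rRNA share as a covariate (0.18). Without compound ATP15 read 53.3, 41.7 and 63.0 RPKM in wild type and 34.5, 34.3 and 35.1 in slt2, a log2 difference of -0.57 (adjusted p = 0.170).

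QCR2 read 93.0, 78.9 and 72.5 RPKM in treated wild type and 51.4, 51.7 and 49.4 in treated slt2. The lowest wild-type library was above the highest slt2 library, and the log2 difference was -0.66 ± 0.14 (SE, 95% interval -0.97 to -0.35, limma adjusted p = 0.0104). Within slt2 the gene read 49.8, 49.0 and 53.9 RPKM without compound, and its response there was -0.00 (adjusted p = 0.998). The call was lost without treated wild-type library 1 (0.0536) and with the rRNA share as a covariate (0.198). COR1, the other core protein, read 61.1, 44.0 and 46.3 RPKM in treated wild type and 42.5, 39.7 and 47.0 in treated slt2, and it was not called (-0.21, adjusted p = 0.425).

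CYC1, the major cytochrome c (chrX:526335-526664, plus strand), read 42.2, 38.5 and 35.5 RPKM in treated wild type and 28.0, 15.8 and 22.3 in treated slt2. The groups did not overlap, and the log2 difference was -0.82 ± 0.20 (SE, 95% interval -1.25 to -0.39, limma adjusted p = 0.0189). Without compound the strains overlapped, with 35.1, 41.2 and 38.9 RPKM in wild type and 30.7, 23.1 and 37.7 in slt2. The call was lost without treated wild-type library 1 (0.0741) or 2 (0.0547) or treated slt2 library 2 (0.097), where the gene had 18 reads, and with the rRNA share as a covariate (0.36) or voom (0.0602).

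**Figure D4:**
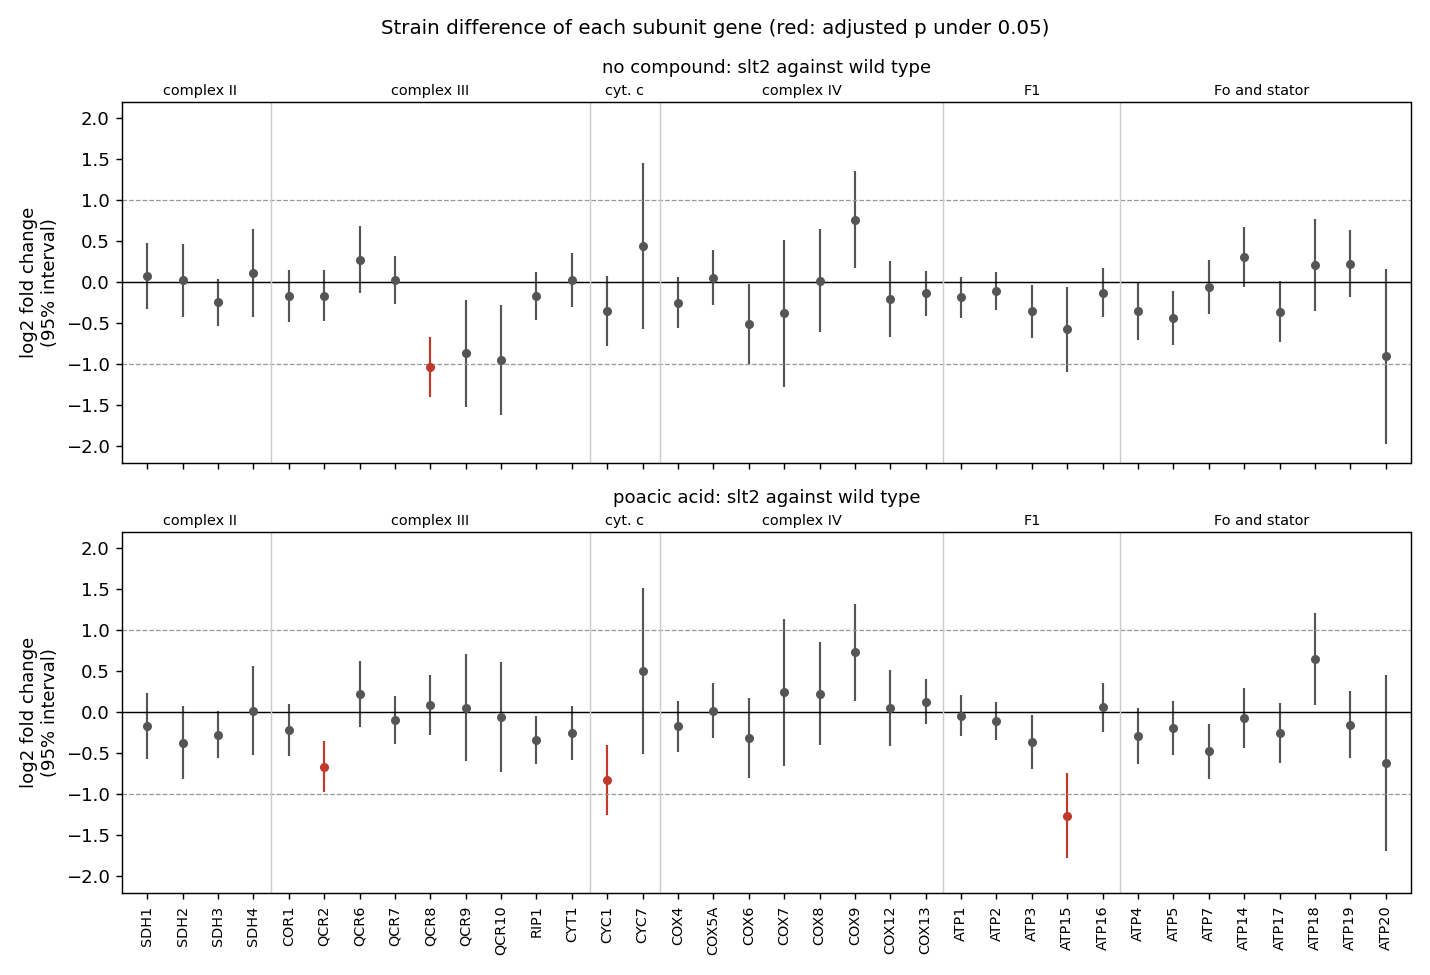
Log2 difference of slt2 from wild type with its 95% interval for each of the 36 genes, without compound (top) and with poacic acid (bottom), with genes past an adjusted p of 0.05 in red. QCR8 (-1.03) is red without compound, and QCR2 (-0.66), CYC1 (-0.82) and ATP15 (-1.26) are red with it.

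The median strain difference of the members with the compound was -0.13, against -0.07 over all genes, with 13 members above 0 (41.1% of all genes) and 29 with a 95% interval within 2-fold (80.9%). There were 8 members that had all slt2 values below all wild-type values (14.1% of all genes) while none lay wholly above (8.94%). The 8 were SDH2, SDH3, QCR2, RIP1, CYT1, CYC1, ATP7 and ATP15. RIP1, the Rieske iron-sulfur protein, read 31.1, 27.5 and 24.6 RPKM in treated wild type and 20.9, 24.1 and 20.1 in treated slt2 (-0.34, adjusted p = 0.158). ATP7 read 75.1, 95.6 and 60.6 RPKM and 55.2, 49.5 and 58.1 RPKM (-0.48, adjusted p = 0.0773). QCR8, low in slt2 without compound, differed by 0.09 with it (adjusted p = 0.802). Without treated wild-type library 3, the one with the high rRNA share, 6 members were called, with ATP3 (0.0226), ATP7 (0.0118) and ATP20 (0.0301) beside ATP15, QCR2 and CYC1. No share of all tested genes is given for that fit, so the count was not read against one.

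Yeast has 2 cytochrome c genes, CYC1 and the minor form CYC7 (chrV:79636-79977, minus strand), which is known to rise when oxygen is low. CYC7 read 1.11, 2.09 and 4.25 RPKM in untreated wild type, 3.75, 2.22 and 4.08 in treated wild type, 4.40, 6.15 and 1.21 in untreated slt2 and 6.46, 7.60 and 2.46 in treated slt2. All groups overlapped and no comparison called it. Its share of the summed cytochrome c RPKM was 5.92 ± 3.5% in untreated and 7.97 ± 2.4% in treated wild type, and 12.2 ± 9.0% in untreated and 20.4 ± 11% in treated slt2 (SD, n = 3 each). The exact 2-sided permutation test gave p = 0.4 for wild type and 0.5 for slt2 under the compound, and 0.3 and 0.2 for the strains without and with it, where 3 libraries against 3 cannot go below 0.1. It did not use the pairing of libraries by biological sample. For libraries 1, 2 and 3 the share was 3.07, 4.83 and 9.86% in untreated and 8.16, 5.45 and 10.3% in treated wild type. In slt2 it was 12.5, 21.1 and 3.12% without and 18.8, 32.5 and 9.93% with the compound. Each treated library lay above the untreated one of the same number, and no paired test was run. The strain with the higher share is also the one with the lower CYC1.

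COX5A and COX5B are alternative forms of the same complex IV subunit, and COX5B, the form used at low oxygen, was not among the 36 genes. COX5B took 34.2 ± 4.3% of their summed RPKM in untreated wild type and 41.1 ± 5.3% in treated wild type, and 35.8 ± 6.1% and 41.3 ± 5.7% in slt2. The exact permutation p was 0.2 for both responses, 0.7 for the strains without compound and 1 with it, again without pairing. For libraries 1, 2 and 3 the COX5B share was 32.3, 31.2 and 39.2% in untreated and 36.5, 46.9 and 39.8% in treated wild type. In slt2 it was 35.1, 42.2 and 30.1% without and 42.2, 46.4 and 35.1% with the compound. Each treated library was again above the untreated one of the same number. The 5 genes whose log2 values most resembled those of CYC7 over the 12 libraries were SGF73, YIR035C, SEG2, TPO2 and SPO14, each with a Pearson r of 0.86, which with CYC7 at 2 to 17 reads is a description.

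The other genes of respiration were taken as 88 further genes in lists of assembly factors, regulators, carriers, dehydrogenases, isoforms and mitochondrial genes. ATP8 was listed at 0 in every library, so 87 were tested. In wild type 5 of the 87 rose and none fell, against 5.83% of all tested genes called (3.87% higher, 1.96% lower). PET117, a complex IV assembly factor, read 12.3, 8.84 and 13.1 RPKM without and 26.0, 21.4 and 26.7 with the compound, with no overlap (log2 fold change 1.06 ± 0.17 SE, adjusted p = 0.00212). COX20, which helps Cox2 mature, rose by 0.78 (adjusted p = 0.0213), CBP4, a complex III assembly factor, by 0.71 (0.0102), ATP22, needed to make the Fo part, by 0.82 (0.0309), and NDE1, an external NADH dehydrogenase, by 0.48 (0.0244). With biological samples as a block 10 of the 87 were called, 9 higher and 1 lower, and no share of all tested genes is given for that fit. The PET117 call held in every fit with 1 library left out (up to 0.0132), and it was the only 1 of the 5 left without untreated wild-type library 2. There were 2 calls without untreated wild-type library 1 or treated wild-type library 3. With the rRNA share as a covariate there were also 2, and COX20 (0.184), CBP4 (0.0778) and NDE1 (0.133) were lost. COX20 and NDE1 were lost without untreated library 1 (0.0772 and 0.0769) or 2 (0.0871 and 0.126) or treated library 3 (0.0853 and 0.0915), and CBP4 without untreated library 2 (0.0549). ATP22 was lost without untreated library 1 (0.114), 2 (0.0605) or 3 (0.0709) or treated library 2 (0.0611) or 3 (0.0788). In a fit on the wild-type libraries alone COX20 (0.0595), ATP22 (0.0835), CBP4 (0.0648) and NDE1 (0.108) were not called.

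In slt2 3 of the 87 rose and none fell, against 8.45% of all tested genes called (5.29% higher, 3.17% lower). STF2, which stabilises the inhibitor of F1, read 56.0, 55.2 and 36.6 RPKM without and 133, 123 and 81.7 with the compound, with no overlap (1.17 ± 0.23 SE, adjusted p = 0.00749). GUT2, the mitochondrial glycerol-3-phosphate dehydrogenase, rose by 0.67 (adjusted p = 0.0308), and DLD1, the D-lactate dehydrogenase that feeds cytochrome c, by 0.92 (0.0118). GUT2 was not called without untreated slt2 library 1 (0.0729), 2 (0.0564) or 3 (0.129) or treated slt2 library 1 (0.147) or 2 (0.143), nor DLD1 without untreated library 3 (0.0677) or treated library 1 (0.066) or 2 (0.0692). With biological samples as a block, and also without treated wild-type library 3, 5 of the 87 were called, all higher. No share of all tested genes is given for these fits.

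**Figure D5:**
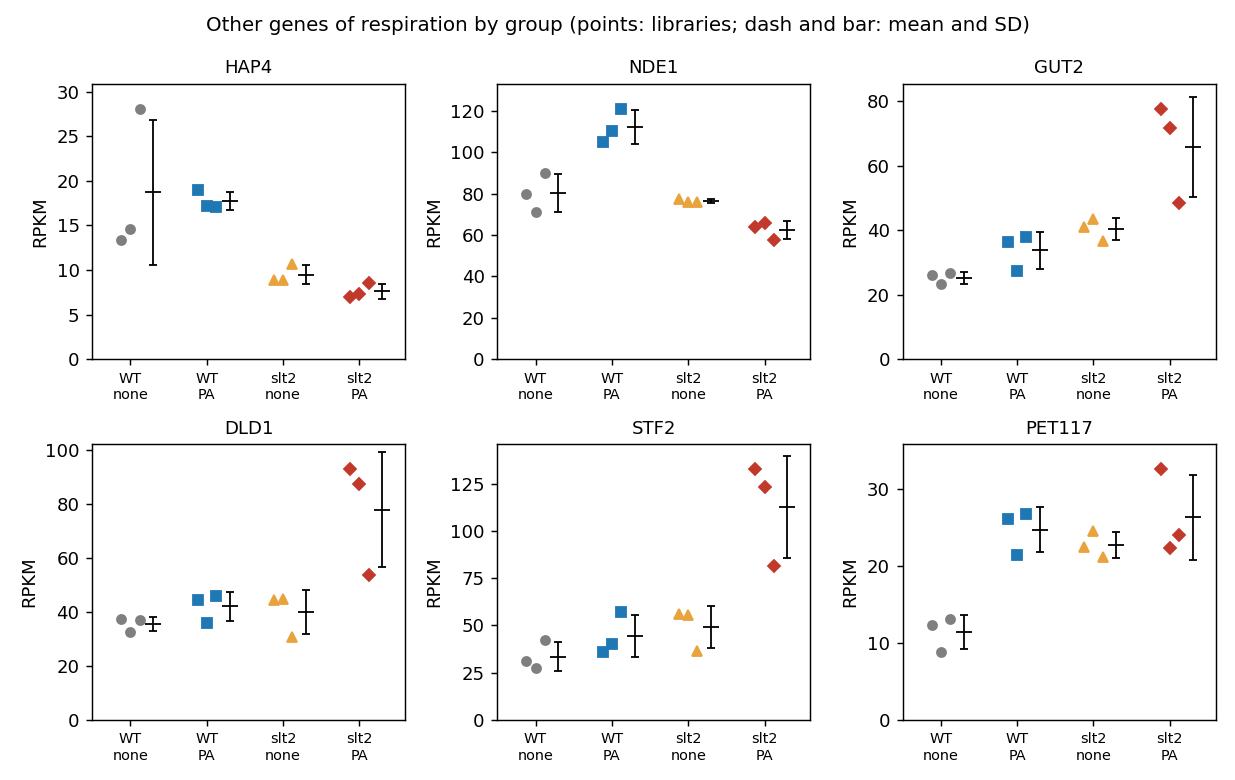
RPKM per library of HAP4, NDE1, GUT2, DLD1, STF2 and PET117 in the 4 groups, with points for libraries and the dash and bar for the mean and SD of 3. HAP4 is lower in the slt2 groups, NDE1 is highest in treated wild type (105 to 121 RPKM), and GUT2, DLD1 and STF2 are highest in treated slt2.

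HAP4, the activating subunit of the Hap2/3/4/5 complex, read 18.9, 17.2 and 17.1 RPKM in treated wild type and 6.95, 7.28 and 8.59 in treated slt2. The groups did not overlap, and the log2 difference was -1.13 ± 0.22 (SE, adjusted p = 0.00489), which held with any 1 library left out (up to 0.0254) and not with the rRNA share as a covariate (0.123). Without compound it read 13.4, 14.6 and 28.1 RPKM in wild type and 8.88, 8.85 and 10.7 in slt2 (-0.84, adjusted p = 0.0692). HAP1, a heme-responsive activator, was higher in treated slt2 by 0.60 (adjusted p = 0.0263), a call lost without treated wild-type library 2 (0.0899), treated slt2 library 1 (0.0939) or 2 (0.108), in a fit on the treated libraries alone (0.0911) or with the rRNA share as a covariate (0.662). The subunits HAP2, HAP3 and HAP5 and the repressor ROX1 passed in no comparison.

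NDE1 read 105, 110 and 121 RPKM in treated wild type and 63.7, 65.7 and 57.6 in treated slt2, a log2 difference of -0.84 ± 0.11 (SE, adjusted p = 0.00026) that held with any 1 library left out and with the rRNA share as a covariate. Its response also differed between strains, by -0.77 ± 0.16 (SE, adjusted p = 0.0243), the only 1 of the 87 called for the difference against 1.72% of all tested genes, from 0.48 in wild type to -0.29 in slt2 (adjusted p = 0.144). In treated slt2 GUT2 (0.93, adjusted p = 0.00359), DLD1 (0.84, 0.0178) and STF2 (1.32, 0.00244) were higher than in treated wild type and ATP22 lower (-0.83, 0.0201), so that 4 of the 87 were higher and 3 lower, against 3.99% and 4.23% of all tested genes. DLD1 was lost without treated wild-type library 2 (0.0799) or treated slt2 library 1 (0.0952) or 2 (0.0921), ATP22 without treated wild-type library 2 (0.081) or treated slt2 library 1 (0.0736) or 3 (0.0525), and in a fit on the treated libraries alone neither DLD1 (0.0543) nor ATP22 (0.0608) was called. There were 11 calls among the 87 without treated wild-type library 3, and 4 without treated wild-type library 2 or treated slt2 library 1. With the rRNA share as a covariate NDE1 alone of the 7 stayed called. Without compound PET117 (0.95, adjusted p = 0.0288), PET122 (0.85, 0.0309), an activator of COX3 translation, and COA3 (0.76, 0.0379), a complex IV assembly factor, were higher in slt2 and none of the 87 was lower, against 0.884% higher and 0.868% lower of all tested genes. All 3 were lost without untreated wild-type library 1 (0.0885 to 0.0974) or 2 (0.0934 to 0.135), and without untreated slt2 library 1 (0.118 to 0.16) or 2 (0.0807 to 0.0848). They were also lost with the rRNA share as a covariate (1), where the log2 differences were still 0.54, 0.52 and 0.36 in that order. Leaving out treated wild-type library 2 or 3 gave 8 and 10 calls among the 87. PET122 was also lost without untreated slt2 library 3 (0.0524), and COA3 without untreated wild-type library 3 (0.091), untreated slt2 library 3 (0.0736) or treated slt2 library 1 (0.0507) or 2 (0.0519). Without trend and robust variances PET122 (0.0541) and COA3 (0.065) were not called, and with voom PET117 (0.0529) was not. In a fit on the untreated libraries alone 14 of the 87 were called, 9 higher and 5 lower. No share of all tested genes is given for this fit or for those with 1 library left out, so their counts were not read against one.

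The mitochondrial genes for subunits of the same enzymes, 6 of which were tested, were called in no comparison by limma. At an unadjusted p under 0.05 there were 4 between the untreated strains, all lower in slt2 (24.3% of all tested genes were under that p), and 3 for the difference of responses (11.9%). There was 1 for the slt2 response (22.4%), and there were 0 for the wild-type response (21.5%) and the treated strains (22.9%). The difference of log2 responses ran from 0.62 (COX2) to 1.55 (ATP6), with a median of 1.07 against 0.02 over all tested genes. The median response was -0.47 in wild type (-0.61 to -0.16) and 0.60 in slt2 (0.44 to 0.99). The cause was not tested. COB, cytochrome b of complex III, read 149, 126 and 113 RPKM in untreated wild type, 121, 136 and 35.0 in treated wild type, 44.1, 69.7 and 62.6 in untreated slt2 and 63.3, 126 and 141 in treated slt2. Untreated slt2 lay below untreated wild type in all libraries, and treated wild-type library 3, with its high rRNA share, was the lowest of all.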

How the data were processed

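The authors deposited 1 table of RPKM values with decimal commas, read here as decimal points. Per the submitters' processing notes the build was R64. Not given in the sources used here were the aligner, the counter, the use of strand and the handling of multiple matches. Per the labels, rRNA-depleted RNA was made into stranded libraries. The treatment label gives 1 h and the growth label 2 h. ATP1 overlaps YBL100C and ATP14 overlaps YLR294C, so these values are uncertain.

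Depth was recovered from RPKM and exon length. Values up to 100 reads were whole within 0.02 reads for 99.5 to 99.71% of genes. For the 6222 genes that reached 1 RPKM in 3 or more libraries, log2(RPKM + 1) was modelled by limma 3.58.1 (trend, robust, R 4.3.3), 1 mean per group over 12 libraries, with Benjamini-Hochberg adjustment over all tested genes. Fold changes on this scale understate those of low genes. The script was tested on simulated data. Alternatives were another pseudocount (0.1), no filter, median scaling, a replicate block, only the groups compared, no trend, and each library left out. The rRNA share covariate and voom were chosen after seeing the data. Motifs were searched in the R64 RefSeq genome with Python 3.11.15.

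The members and lists were chosen with earlier results of these data known. Members past the threshold are given with every library, or the 4 nearest to it where fewer passed, with the highest and lowest of each complex, both cytochrome c genes and the 5 genes most like CYC7.

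The series text says that every biological sample gave 1 library of each treatment, which is the source of the pairing within a strain. Deviations of samples with the same number correlated at -0.14, 0.27 and -0.03 in wild type and 0.03, 0.23 and 0.33 in slt2. Those of samples with different numbers correlated at -0.18 to 0.23 in wild type and -0.35 to 0.19 in slt2. p-values cover the spread between 3 biological samples per group.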

Additional observations from a re-analysis of the deposited data

Results flagged for a closer look

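The response of 1 subunit gene and of 1 other respiratory gene differed between the strains by the interaction test. For QCR8 the difference of log2 responses, slt2 minus wild type, was 1.12 (adjusted p = 0.0301, limma), from 25.9 to 20.4 RPKM in wild type and from 12.04 to 21.6 RPKM in slt2 (group means, n = 3). For NDE1 it was -0.77 (adjusted p = 0.0243), from 80.2 to 112 RPKM in wild type and from 76.3 to 62.4 RPKM in slt2. The QCR8 call was lost in 6 of the 12 fits with 1 library left out. It was also lost with the rRNA share as a covariate (0.06) and with voom (0.122). The NDE1 call was lost without untreated wild-type library 1 (0.0647) or 2 (0.0684), without untreated slt2 library 1 (0.0692), 2 (0.0627) or 3 (0.0565), and without treated slt2 library 1 (0.0561), 2 (0.0501) or 3 (0.0516). The rRNA share, which moves with the strain, was 0.0932 to 5.17% in wild type and 4.88 to 6.67% in slt2, and its part was not tested beyond the covariate fit.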

How the results depend on the processing

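Of 396 alternative fits of the 20 member results named, 395 kept the direction. The exception was ATP5 between the untreated strains, at 0.0193 with the rRNA share as a covariate. These fits reuse the same 12 libraries. Leaving out a library outside a comparison leaves its fold change as it was, so part of this agreement was fixed in advance. Of the 7 member results called, 0 held in every fit. Only 1, ATP15 between the treated strains, held in every fit with 1 library left out. Members called in wild type went from 0 to 2 with the replicate block and to 1 with voom, and ranged from 0 to 2 with 1 library left out. The slt2 response had 2 calls, and 1 with no filter, with median scaling, with the compared groups only or with no trend, 0 with voom, and 0 to 2 with 1 library left out. The difference of responses had 1 call, and 0 with the rRNA covariate or voom, and 0 to 1 with 1 library left out. The untreated strains had 1, and 3 with the compared groups only, 0 with the rRNA covariate, and 0 to 2 with 1 library left out. The treated strains had 3, and 1 with the rRNA covariate (COX8, higher, 0.0382), and 1 to 6 with 1 library left out. Among the other pathway genes the count ranged from 0 to 14 over settings. Shares of all tested genes called are given for the main fit only, limma on 12 libraries with 1 mean per group. Counts from the alternative fits, of members or of other genes, therefore cannot be read against such a share. The block, by biological sample for the responses and by replicate number for the strains, changed no member call but SDH1 and ATP18 in wild type. The CYC7 share response was 2.05 percentage points in wild type (0.62 to 4.02 with 1 library left out) and 8.18 in slt2 (2.12 to 13.4). Subunit genes with under 20 reads in a library limit what could be called. No cause of these changes was tested.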
